A study of Mus musculus with 2 samples.

Results

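The 8 long noncoding RNAs described here are *Malat1*, *Neat1*, *Gm42031*, *Gm47664*, *Gm10790*, *A830008E24Rik*, *B430010I23Rik* and *3222401L13Rik*, taken by symbol from the 32285 genes of the count matrix, in which all 8 were found. They were chosen from these same libraries, by their levels per cell class and library and their relation to *Malat1*, so what follows describes those values and supports nothing independently. They were measured by single-cell RNA sequencing of CD45low CD11b+ cells sorted from the brains of male *Disc1* WT/WT and *Disc1* LI/LI littermates of 23 weeks. In *Disc1* LI/LI mice both copies of *Disc1*, which encodes a cytoskeletal scaffold protein, carry the locus impairment allele, described as equivalent to a knockout. Brains of 6 mice were pooled per genotype, actinomycin D was present during dissociation of both pools to stop new transcription, and each pool gave 1 library. Since each genotype has a single library, genotype was not tested. The labels call the cells microglia, but neutrophils made up 46.3% of the *Disc1* LI/LI library. Every interval below is a 95% interval for counting error only.

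Long noncoding RNAs are transcribed and often spliced like messenger RNAs but encode no known protein. *Malat1* and *Neat1* lie side by side on mouse chromosome 19 and stay in the nucleus, where *Malat1* gathers in nuclear speckles, the storage sites of splicing factors, and the long form of *Neat1* is the scaffold of paraspeckles, bodies of RNA-binding proteins. *Neat1* is inducible in immune cells, and *Malat1* is often the most captured nuclear RNA in a cell. The other 6 members carry clone or model names and have no established function.

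The 3′ ends of the members are shown first, because the libraries capture RNA through poly(A) and count 3′ ends. *Malat1* (chr19:5795690-5802672, minus strand, GENCODE M21 on mm10) was a lincRNA of 6983 bases whose full-length transcript held a single run of 12 A at positions 6674 to 6685, upstream of its annotated end. *Neat1* (chr19:5824708-5845478, minus strand) was a lincRNA with a long transcript of 20771 bases and a short one of 3004. The window of *Malat1* around the A run (chr19:5795948-5796059, positions 6614 to 6725) and the last 112 bases of long *Neat1* (chr19:5824708-5824819, positions 20660 to 20771) shared a run of 16 bases, shown in capitals together with the 12 A of *Malat1*:
Malat1: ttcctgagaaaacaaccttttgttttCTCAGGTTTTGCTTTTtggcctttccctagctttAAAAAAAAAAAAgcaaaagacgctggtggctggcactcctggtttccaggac
Neat1: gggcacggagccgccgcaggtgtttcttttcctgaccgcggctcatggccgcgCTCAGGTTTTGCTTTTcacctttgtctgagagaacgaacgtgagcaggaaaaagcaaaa
Among the longest transcripts of 32158 genes, 2 held this run on the transcribed strand, *Malat1* and *Neat1*. In both RNAs this U-rich stretch belongs to the known end structure that is cut by RNase P instead of being polyadenylated.

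The long *Neat1* transcript had no polyadenylation signal AATAAA in its last 50 bases, while the annotated end of *Malat1*, 16 bases after its last AATAAA, did. The ends of the short *Neat1* transcript and of the longer *Gm10790* transcript carried it, in capitals here, and the end of *Gm47664* did not:
Neat1, short transcript, positions 2905 to 3004: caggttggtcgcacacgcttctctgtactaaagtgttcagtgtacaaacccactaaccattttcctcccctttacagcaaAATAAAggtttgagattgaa
Gm10790, positions 1597 to 1696: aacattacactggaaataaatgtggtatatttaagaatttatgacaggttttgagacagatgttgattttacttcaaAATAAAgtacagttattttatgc
Gm47664, positions 1241 to 1340: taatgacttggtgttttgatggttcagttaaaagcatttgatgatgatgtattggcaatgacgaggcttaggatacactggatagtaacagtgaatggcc
Over the longest transcript of each gene, AATAAA stood in the last 50 bases of 48.2% of all genes and 32.6% of noncoding genes. A run of at least 10 A was found in *Malat1*, *A830008E24Rik*, *B430010I23Rik* and *3222401L13Rik*, against 13.2% of all genes and 8.33% of noncoding genes. These matches are descriptions of the annotated sequence, and which end each counted molecule came from was not tested.

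The remaining 6 members differ in how they sit among other genes, which bears on what their counts can mean. *Gm42031* (chr8:85125872-85132289, minus strand) is a lincRNA of 2 exons, 2776 bases from *Zfp791* and 39.9 Mb from *Disc1* on the same chromosome. Its last 500 bases share 31-base words with 7 other genes, so this end is repeated elsewhere, its counts are uncertain, and the part of the other copies in every *Gm42031* value below was not tested. *Gm47664* (chr13:20499888-20501227, plus strand) is an RNA of 1 exon inside an intron of *Elmo1* and on the same strand, so unspliced *Elmo1* RNA and *Gm47664* cannot be told apart. *B430010I23Rik* (chr8:41017468-41024216, plus strand, 84.0 Mb from *Disc1*) is antisense to *Mtus1*, and the last 500 bases of its shorter transcript share 31-base words with 626 genes. *3222401L13Rik* (chr18:37655451-37661742, plus strand) is overlapped on its own strand by 3 protein-coding models and lies 50 bases from *Pcdhga1*. *Gm10790* (chr13:41865915-41913092, plus strand) and *A830008E24Rik* (chr1:154037597-154117951, minus strand) overlap no protein-coding gene, and the last 500 bases of the long *A830008E24Rik* transcript share 31-base words with 5 other genes, *Kcnq1ot1* among them.

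The *Disc1* WT/WT library held 7038 barcodes with 33601957 unique molecular identifiers (UMIs, tags that count each captured molecule once) and the *Disc1* LI/LI library 7834 barcodes with 47731571 UMIs; 12 barcode sequences occurred in both. *Disc1* itself had 642 and 22 UMIs. Barcodes under 200 genes or above 10% mitochondrial UMIs were removed (6 and 17), and the rest were classed by rule. Microglia had at least 0.5% of UMIs from 6 microglia genes (*P2ry12*, *Gpr34*, *Tmem119*, *Siglech*, *Fcrls*, *Olfml3*) and under 1% from *S100a8* and *S100a9*, and neutrophils had at least 3% from the latter pair. All 8 further microglia markers were at least 1.5-fold higher in the microglia of both libraries than in the neutrophils, and all 8 further neutrophil markers lower. The *Disc1* WT/WT library had 6180 microglia, 116 neutrophils and 736 other cells, and the *Disc1* LI/LI library 1950, 3622 and 2245. Markers of neurons, astrocytes, oligodendrocytes and endothelium summed to 1.43, 1.57, 21.4 and 28.4 CPM (UMIs of a gene per 1000000 UMIs of the cells) in *Disc1* WT/WT microglia. In *Disc1* LI/LI microglia these sums were 1.35, 1.59, 19.3 and 17.9 CPM. *S100a8* and *S100a9* together stood at 27.9 CPM in *Disc1* WT/WT and 687 CPM in *Disc1* LI/LI microglia, which goes with every microglia ratio between the libraries below, and its part in them was not tested. CPM counts captured 3′ ends and is not divided by length, so levels are compared between cells and not between genes.

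*Malat1* was the second most counted gene of the microglia in both libraries. It took 28659 CPM in *Disc1* WT/WT microglia and 28707 CPM in *Disc1* LI/LI microglia. Neutrophils held less, 14690 and 11622, and other cells 20024 and 9457. A UMI of *Malat1* was found in 95.4% and 94.1% of microglia and in 100% and 99.9% of neutrophils. The level of *Malat1* thus differed between cell classes in each library but hardly between the microglia of the 2 libraries. The difference between classes rests on the scaling by total UMIs. Under TMM scaling, which sets the bulk of genes equal, the log2 ratio of microglia over neutrophils was 0.08 (*Disc1* WT/WT) and -0.01 (*Disc1* LI/LI), in place of 0.96 and 1.30.

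*Neat1* had the opposite order and was the only member higher in neutrophils than in microglia. Its level was 199 CPM (interval 167 to 236) in *Disc1* WT/WT neutrophils, 90.5 (80.8 to 101) in other cells and 31.7 (29.7 to 33.9) in microglia. In the *Disc1* LI/LI library the same classes held 156 (151 to 162), 109 (104 to 114) and 34.4 (30.5 to 38.7). In both libraries the 3 classes kept this order with intervals that did not overlap. After every cell was thinned to 1000 UMIs, *Neat1* was found in 25.2% and 20.3% of neutrophils and in 2.63% and 2.53% of microglia.

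The other 6 members were higher in microglia than in neutrophils in both libraries. Together with *Malat1* they made 7 of 8 members at least 1.5-fold higher in microglia, against 63.4% (*Disc1* WT/WT) and 68.5% (*Disc1* LI/LI) of all genes, with medians over all genes of 0.98 and 1.28 on the log2 scale. *Neat1* was the 1 of 8 at least 1.5-fold lower, against 13.2% and 16% of all genes. Most genes were higher in microglia on this scale, so the members' count is read beside these shares. Under TMM scaling 5 and 6 members were at least 1.5-fold higher.

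How close to 0 the 6 stood in neutrophils differed among them, and RNA of microglia found in neutrophil droplets sets the scale. The 6 microglia genes of the rule stood in *Disc1* LI/LI neutrophils at 2.83% to 3.33% of their microglia level, and 23.2% of these neutrophils held a UMI of them. *Gm10790* at 3.29%, *3222401L13Rik* at 2.81% and *A830008E24Rik* at 2.62% were at that background, with 2.78, 2.73 and 1.76 CPM, against 84.6, 97.2 and 67.2 in microglia. These 3 were not detectable in neutrophils beyond the level of the microglia markers.

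*Gm42031* at 11.1% (8.21 to 14.8), *Gm47664* at 19.3% (16 to 23.2) and *B430010I23Rik* at 22.7% (19.2 to 26.7) of their microglia level stood above this microglia background in *Disc1* LI/LI neutrophils. The background does not cover RNA of other cells, whose part was not tested. In *Disc1* LI/LI other cells *Gm42031* stood at 28.5 CPM, against 25.9 in microglia, *Gm47664* at 6.47 and *B430010I23Rik* at 11.1. In *Disc1* WT/WT the 116 neutrophils held the rule genes at 15.2% to 18.2% of microglia, and 48.3% of them had such a UMI. There, 5 to 16 UMIs were counted for each of these 6 members. Of them only *B430010I23Rik*, with 47.1% (26.3 to 78), had an interval wholly above the marker range.

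**Figure D1:**
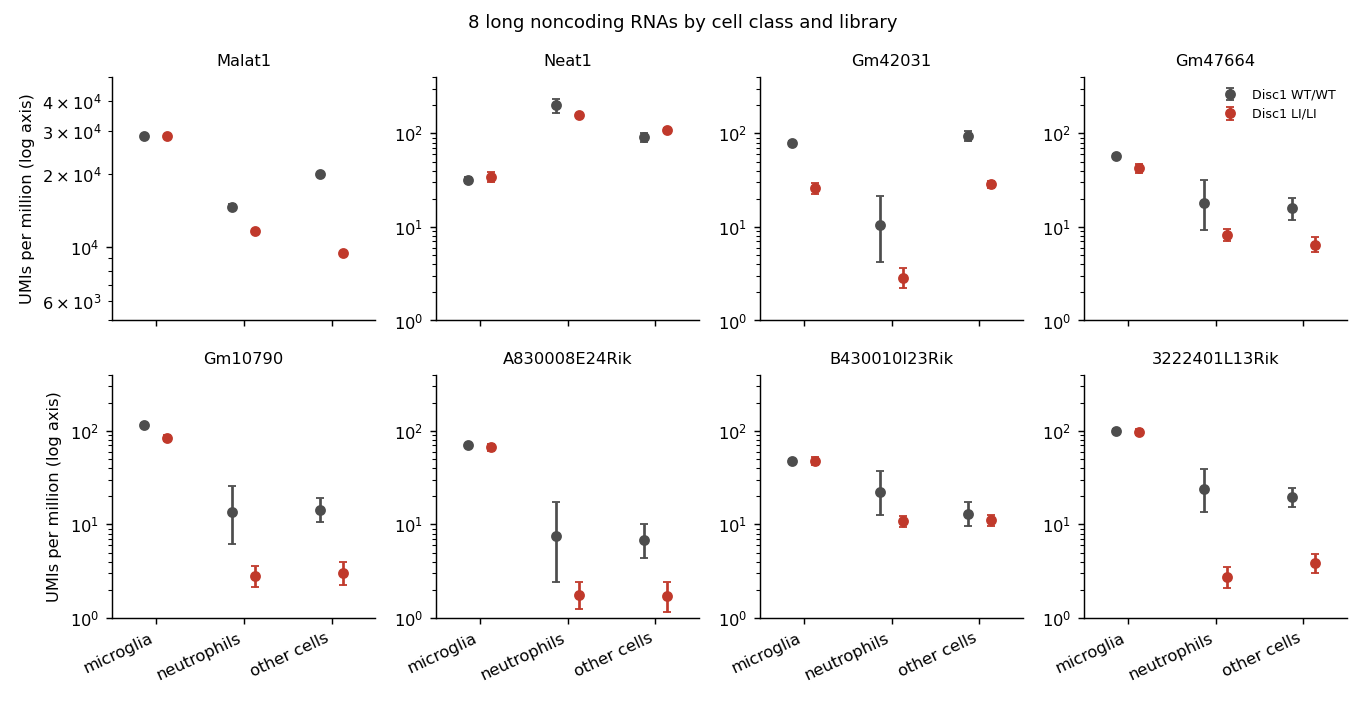
CPM (log axis) of each member in microglia, neutrophils and other cells of the Disc1 WT/WT (grey) and Disc1 LI/LI (red) library, with bars for 95% Poisson intervals; the panel of Malat1 has its own axis range. Neat1 is highest in neutrophils, Gm42031 is lower in Disc1 LI/LI in every class, and Gm10790, A830008E24Rik and 3222401L13Rik drop from 67.2 to 97.2 in Disc1 LI/LI microglia to 1.76 to 2.78 in neutrophils.

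The remaining cells were divided by markers of monocytes (including *Ly6c2* and *Ccr2*), border macrophages (*Mrc1*, *Pf4*), T and NK cells, B cells and progenitors, and levels are given where a type had at least 50 cells. These cells held RNA of microglia too. The 6 microglia genes of the rule summed to 1727 CPM in *Disc1* WT/WT other cells and 333 CPM in *Disc1* LI/LI ones, against 11802 and 10790 in microglia, and the part of such RNA in the levels by type was not tested. *Gm42031* stood at 122 CPM (94.4 to 155) in 65 *Disc1* WT/WT monocyte-like cells and at 105 (81.9 to 132) in 173 border macrophage-like cells, against 79.9 (76.7 to 83.2) in microglia. In the *Disc1* LI/LI library it stood at 30.9 (27.6 to 34.6) in 1261 monocyte-like cells, 44.3 (31.5 to 60.5) in 166 B cell-like cells and 25.9 (22.6 to 29.7) in microglia.

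Monocyte-like cells resembled neutrophils in *Neat1*, with 163 (131 to 200) and 132 (125 to 139) CPM, and T and NK cell-like cells held 54.6 and 59. *Malat1* was 28712 CPM in *Disc1* WT/WT border macrophage-like cells, level with microglia, and 5265 in 121 *Disc1* LI/LI progenitor-like cells, of which 83.5% held a UMI of the proliferation genes *Mki67* or *Top2a*. *Gm10790* and *A830008E24Rik* stood at 1.3 and 1.2 in *Disc1* LI/LI monocyte-like cells, and *B430010I23Rik* at 14.7 (12.4 to 17.2) there.

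In microglia, *Gm42031* was the only member at least 1.5-fold lower in the *Disc1* LI/LI library. It had 2349 UMIs in the 6180 *Disc1* WT/WT microglia and 212 in the 1950 *Disc1* LI/LI microglia, that is 79.9 and 25.9 CPM, and was 3.08-fold lower (log2 ratio -1.62, interval -1.83 to -1.42). A UMI was found in 28.8% and 10% of the microglia, and in 7.62% and 3.05% after thinning to 1000 UMIs. Of the 11087 genes with at least 50 UMIs, 18.1% were at least 1.5-fold lower and 2.94% at least 1.5-fold higher, and *Gm42031* lay at percentile 0.478 of the ratios. The 1 of 8 members is near the background share, and the ratio was one of the values by which the members were chosen.

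The other 7 members lay between -0.46 and 0.12. *Gm10790* (117 and 84.6 CPM, log2 -0.46, -0.58 to -0.35) and *Gm47664* (57 and 42.3, log2 -0.43, -0.60 to -0.26) were lower by less than 1.5-fold. *A830008E24Rik* (70.2 and 67.2), *3222401L13Rik* (101 and 97.2) and *B430010I23Rik* (47.7 and 47.9) had intervals that held 0, as did *Neat1* (31.7 and 34.4). The median over all genes was -0.19 and that of the 8 members -0.06. With cells thinned to 1000 UMIs, *Gm10790* passed 1.5-fold as well (log2 -0.62).

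The genes around *Gm42031* were read beside it, and were chosen after its value was seen. *Zfp791*, its nearest protein-coding neighbour and a zinc finger gene, was the lowest of the 40 measured coding genes within 1 Mb, with 4.25 and 1.47 CPM (log2 -1.53, -2.53 to -0.68). The median of these 40 was 0.04 and 3 of them were at least 1.5-fold lower. *Elmo1*, the engulfment adaptor gene that hosts *Gm47664*, was lower (log2 -0.73, -0.80 to -0.67), and *Mtus1*, which lies opposite *B430010I23Rik*, was at -0.59 (-0.67 to -0.50) while *B430010I23Rik* was at 0.00 (-0.16 to 0.17). Gene length moved with this ratio, with a median of -0.44 over the longest quartile of genes and 0.09 over the shortest, and its part in these values was not tested.

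Outside microglia more members were lower in *Disc1* LI/LI. In neutrophils 5 of the 7 members with at least 50 UMIs were at least 1.5-fold lower, against 38.5% of all genes, and in other cells 6 of 8, against 35.6%. *Gm42031* was again lower, at log2 -1.87 (-3.00 to -0.50; 7 and 62 UMIs) in neutrophils and -1.72 (-1.92 to -1.52) in other cells. *3222401L13Rik* was at -3.13 (-3.95 to -2.24) and -2.34 (-2.84 to -1.84), and *Gm10790* at -2.28 (-3.30 to -1.08) and -2.26 (-2.84 to -1.68).

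Microglia RNA in the neutrophil droplets differed between the libraries, given above as 15.2% to 18.2% in *Disc1* WT/WT and 2.83% to 3.33% in *Disc1* LI/LI. Its part in the neutrophil count was not tested. When neutrophils with any UMI of the 6 microglia genes were left out, 60 and 2780 cells remained, 4 members could be measured and 1 was at least 1.5-fold lower, *Gm47664*. Thinned to 1000 UMIs, 2 could be measured, *Malat1* and *Neat1*, and 0 were lower. Neither was at least 1.5-fold lower without thinning (log2 -0.34 and -0.35), so the members that were could not be re-examined. Microglia RNA in the other cells differed as well, with the 6 microglia genes at 1727 CPM in *Disc1* WT/WT and 333 CPM in *Disc1* LI/LI. Its part in the ratios of the other cells was not tested. The other cells differ in make-up between the libraries, with 65 and 1261 monocyte-like cells and 400 and 475 cells without a type, so their ratios mix types. *Malat1* in other cells (20024 and 9457, log2 -1.08) is such a ratio.

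**Figure D2:**
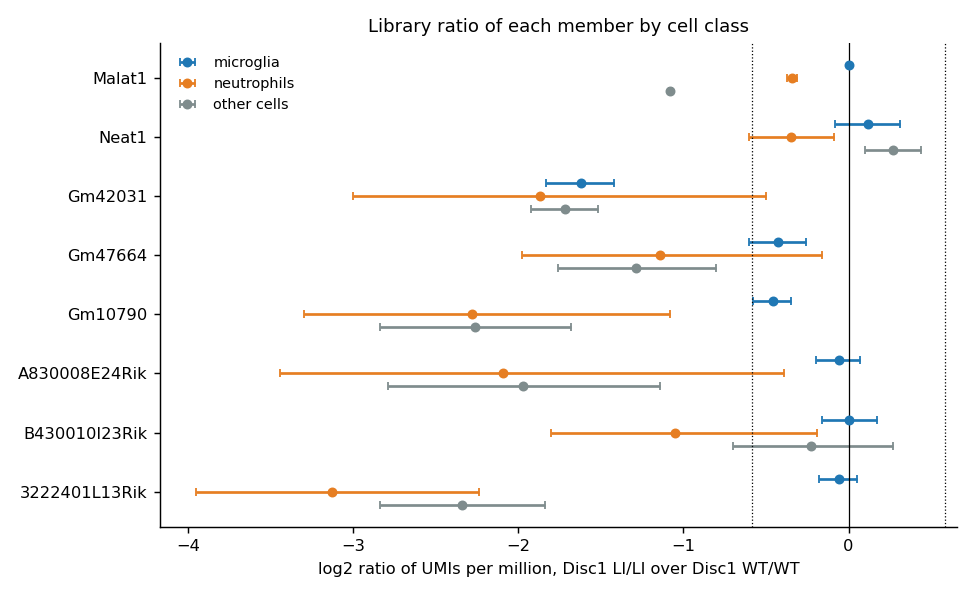
Log2 ratio of CPM in Disc1 LI/LI over Disc1 WT/WT (x axis) for each member in microglia (blue), neutrophils (orange) and other cells (grey), with 95% Clopper-Pearson intervals; dotted lines mark 1.5-fold. In microglia only Gm42031, at -1.62, lies past the left dotted line, and the wide bars of neutrophils rest on 116 Disc1 WT/WT cells.

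The *Malat1* share, the percentage of a cell's UMIs that came from *Malat1*, split the microglia. Its median was 2.98% over *Disc1* WT/WT and 2.95% over *Disc1* LI/LI microglia, and most cells lay around it, between 2.32% and 3.71% for the middle 50% in *Disc1* WT/WT. Apart from these stood microglia with almost no *Malat1*. No UMI of it was found in 282 of 6180 (4.56%, exact binomial interval 4.06 to 5.11) and in 115 of 1950 microglia (5.9%, 4.89 to 7.04).

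Between 0.5% and 1% there were 13 and 37 cells, so 0.5% was taken, after the data were seen, as the limit below which a microglia is called *Malat1*-poor here. That gave 441 *Disc1* WT/WT cells (7.14%, 6.51 to 7.81) and 165 *Disc1* LI/LI cells (8.46%, 7.26 to 9.79), with overlapping intervals. In neutrophils 0 of 116 and 2 of 3622 cells had no *Malat1* UMI (the exact upper limit for 0 of 116 is 3.13%). A share under 0.5% was found in 7 (6.03%, 2.46 to 12) and 360 (9.94%, 8.98 to 11) neutrophils. Another 20 and 818 lay between 0.5% and 1%, and the medians over all neutrophils were 1.61% and 1.39%. Cells of little *Malat1* were not limited to microglia. Of the other cells, 25.7% and 25.2% had a share under 0.5%, as did 28.3% of *Disc1* WT/WT border macrophage-like cells, 32.8% of *Disc1* WT/WT cells without a type and 54.5% of *Disc1* LI/LI progenitor-like cells. The medians over all other cells were 2.05% and 0.867%, and 16.4% and 2.81% had no *Malat1* UMI. Another 43 and 703 lay between 0.5% and 1%, so in *Disc1* LI/LI other cells the limit did not fall in a gap. Of the *Disc1* LI/LI progenitor-like cells, 97.5% held a *Malat1* UMI.

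**Figure D3:**
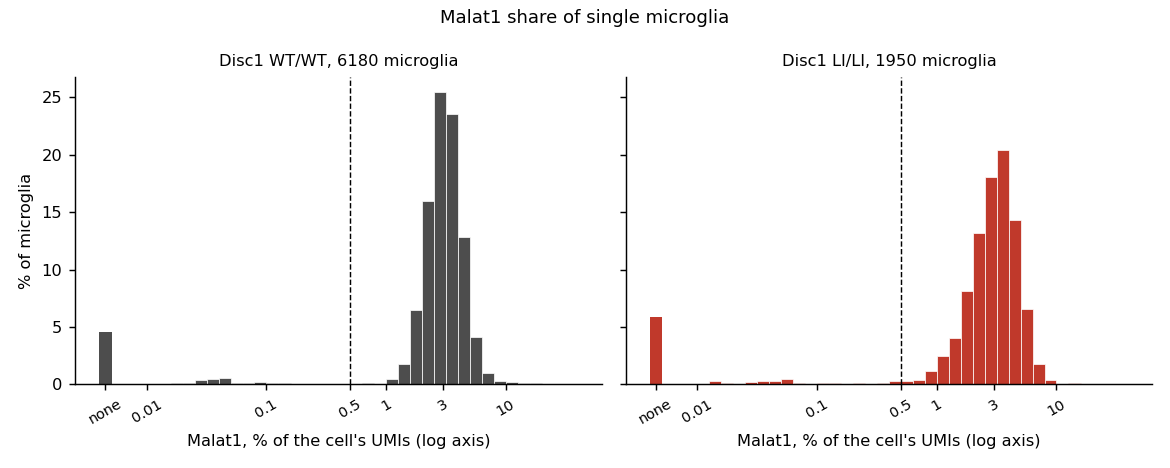
Percentage of microglia (y axis) by the Malat1 share of their UMIs (log axis, with cells without a Malat1 UMI in the bar marked none) in the Disc1 WT/WT and Disc1 LI/LI library. The dashed line marks 0.5%, and 4.56% and 5.9% of microglia stand in the bar marked none, apart from the peak near 3%.

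*Malat1*-poor microglia were also poor in 5 of the other 7 members. *Neat1* had 1 UMI in the 441 *Disc1* WT/WT cells and 932 in the other 5739, that is 0.722 and 34.3 CPM, here with *Malat1* left out of the totals (log2 -5.57, -10.88 to -3.09). *Gm47664* likewise had 1 and 1674 UMIs (0.722 and 61.6 CPM) and *B430010I23Rik* 2 and 1400 (1.44 and 51.5). *A830008E24Rik* stood at 4.33 and 75.7 CPM (log2 -4.13, -5.57 to -3.00) and *3222401L13Rik* at 13.7 and 109 (log2 -2.99, -3.72 to -2.34). For all 5 the interval ended at -2.34 or lower.

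In the *Disc1* LI/LI library the same 5 members were at least 1.5-fold lower, on fewer UMIs. *Gm47664* had 0 UMIs in the 165 *Malat1*-poor cells and 346 in the others, at least 7.03-fold lower against a floor of 3 counts over the group, with a 95% interval that ended at log2 -2.51. *B430010I23Rik* had 1 UMI and *Neat1* 3, against 390 and 278. *Neat1* was at -2.50 (-4.78 to -0.94) and *A830008E24Rik*, also with 3 UMIs, at -3.47 (-5.75 to -1.92). *3222401L13Rik* was at 11 and 105 CPM. These calls depend on which cells count as microglia. With microglia genes at 1% of UMIs or more, 26 *Malat1*-poor *Disc1* LI/LI cells remained and 2 of 7 members, *Gm10790* and *3222401L13Rik*, were at least 1.5-fold lower in place of 6, *Gm10790* included. There *Neat1* was at -0.57 and *A830008E24Rik* at -0.44, and *Gm47664* and *B430010I23Rik* had 0 UMIs in the *Malat1*-poor cells.

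*Gm10790* and *Gm42031* were the exceptions. *Gm10790* stood at 57.8 against 123 CPM in *Disc1* WT/WT (log2 -1.09, -1.43 to -0.77) and at 46.1 against 89.6 in *Disc1* LI/LI (-0.96, -1.66 to -0.34), a drop that many genes shared. *Gm42031* was not lower. It stood at 87.4 against 82 in *Disc1* WT/WT (log2 0.09, -0.18 to 0.36), and at 35.1 against 26.2 CPM in *Disc1* LI/LI (0.42, -0.41 to 1.16), and a UMI was found in 23.8% of *Malat1*-poor and 29.2% of other *Disc1* WT/WT microglia.

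Over all genes with at least 50 UMIs, 53.4% (*Disc1* WT/WT) and 51.2% (*Disc1* LI/LI) were at least 1.5-fold lower in *Malat1*-poor microglia, 3.81% and 3.05% were higher, and the medians were -0.65 and -0.61. Beside these shares, 6 of the 7 members were lower in each library, with medians of -4.13 and, with *Gm47664* at its bound, -2.81. *Gm47664*, *Neat1* and *B430010I23Rik* lay under percentile 0.2 of all *Disc1* WT/WT ratios, at 0.0186, 0.0743 and 0.121. In *Disc1* LI/LI they lay at 2.18 (at its bound), 3.71 and 0.0342. *Gm10790* at percentile 30.5 and *Gm42031* at 85.4 lay within the bulk. TMM scaling moved all ratios up by 0.55 and 0.49, which put *Gm10790* at -0.55 and -0.47, under 1.5-fold. With it 5 of 7 members were lower in each library, and *Gm42031*, at 0.64 and 0.91, was at least 1.5-fold higher.

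**Figure D4:**
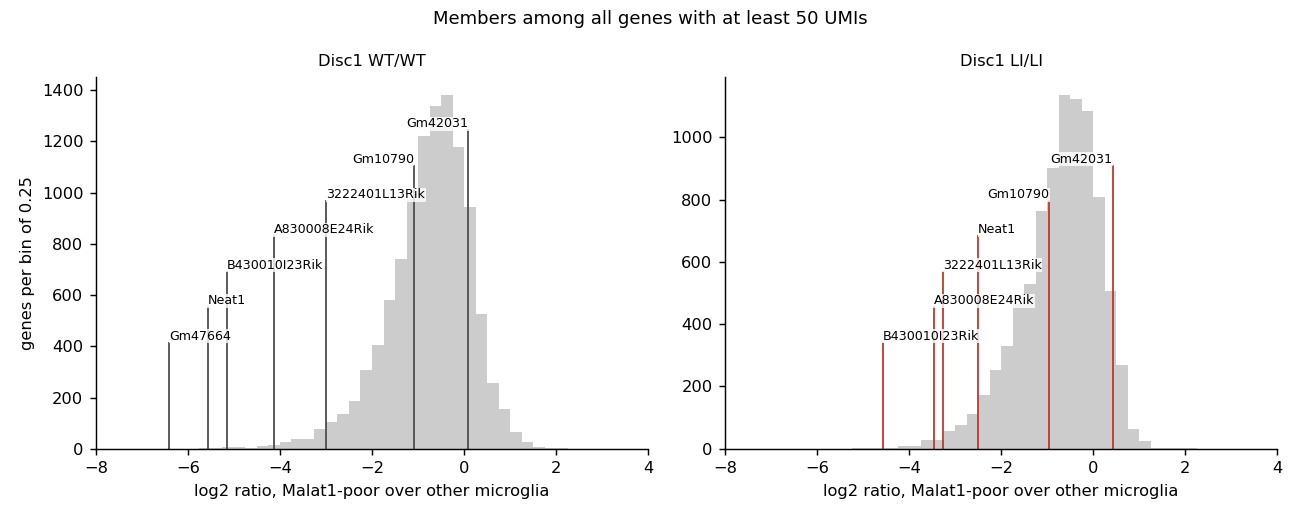
Histogram of the log2 ratio of CPM, Malat1-poor over other microglia (x axis), over all genes with at least 50 UMIs (grey, genes per bin of 0.25), with the members marked by lines whose heights carry no value. In Disc1 LI/LI Gm47664 is not drawn because it had 0 UMIs in Malat1-poor cells; Gm10790 and Gm42031 lie inside the bulk of genes and the others toward its left end.

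*Gm47664* and *B430010I23Rik* were each set beside the protein-coding gene they overlap. *3222401L13Rik* was not compared with the protein-coding models that overlap it. *Elmo1*, the host of *Gm47664*, stood at 266 against 466 CPM in *Disc1* WT/WT (log2 -0.81, -0.96 to -0.66) and at -0.79 in *Disc1* LI/LI. Over the same cells *Gm47664* was at -6.41 (-11.72 to -3.93) in *Disc1* WT/WT. *Mtus1* was at -0.61 and -0.59, against -5.16 (-8.20 to -3.30) and -4.57 (-9.88 to -2.08) for *B430010I23Rik*. The counting intervals of each noncoding RNA and its protein-coding partner did not overlap in *Disc1* WT/WT.

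*Malat1*-poor microglia differed in other measures too, which move with these ratios and whose part in them was not tested. Their median UMI count was 2699 against 4347 (*Disc1* WT/WT) and 2413 against 3866 (*Disc1* LI/LI). Mitochondrial UMIs were 1.98% against 0.829% and 1.62% against 0.668%, and UMIs of ribosomal protein genes 15.2% against 7.22% and 14.8% against 8.54%. The share of the 6 microglia genes was 0.745% against 1.2% and 0.732% against 1.11%. Among the 8 microglia markers that the rule did not use, *Cx3cr1*, the fractalkine receptor gene, was at log2 -2.07 and -2.23 and *C1qa*, a complement gene, at 0.10 and 0.13, so the microglial messenger RNAs did not change alike.

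Genes of paraspeckle and nuclear speckle proteins are the natural partners of *Neat1* and *Malat1*. Of 16 paraspeckle protein genes, 9 (*Disc1* WT/WT) and 12 (*Disc1* LI/LI) were at least 1.5-fold lower in *Malat1*-poor microglia, with medians of -0.82 and -1.0, beside the 53.4% and 51.2% of all genes. Not among the lower ones in *Disc1* WT/WT was *Nono*, a core paraspeckle protein gene, at -0.03 and -0.55, and *Hnrnpk* and *Hnrnpa1* between -0.19 and 0.17. Of 14 nuclear speckle protein genes, 11 were lower in each library, among them *Son*, a speckle scaffold gene, at -1.36 and -1.27, *Srrm1* at -1.26 and -0.89 and *Srrm2* at -1.15 and -1.0, with *Srsf3* at -0.44 and -0.39.

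Of a list of 25 other long noncoding RNAs, 19 and 15 were measured, and 11 and 9 were at least 1.5-fold lower, near the share of all genes. *Kcnq1ot1*, a nuclear RNA that silences its imprinted domain, had 1 UMI in *Malat1*-poor *Disc1* WT/WT microglia (log2 -7.37, -12.68 to -4.89) and 0 in the other library's, at least 11.6-fold lower against the floor, with a 95% interval that ended at -3.23. *Gas5* and *Snhg8*, spliced host genes of small nucleolar RNAs, were at 0.48 and 0.40 and at 0.65 and 0.11, and *Oip5os1* at -0.45 and -0.68. Of the 3 genes that overlap ribosomal RNA repeats, *Gm26917* was at -3.93 (-5.24 to -2.88) and, on 2 UMIs, -3.86 (-6.91 to -2.0), and *AY036118* (0.75 and 0.73) and *Gm42418* (0.31 and 0.58) were not lower. In the other direction 13 of 13 and 11 of 12 mitochondrially encoded genes, and 78 of 89 and 58 of 86 ribosomal protein genes, were at least 1.5-fold higher. The longest genes, the top quartile of gene length, had a median of -0.89 and -0.88, against -0.41 and -0.33 for the shortest quartile.

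Members were also compared along the *Malat1* share of all microglia. Cells were split by quartiles of the *Malat1* share, of 1545 *Disc1* WT/WT or 487 to 488 *Disc1* LI/LI cells each, with *Malat1* left out of the totals. From the lower to the upper quartile *Neat1* was 21.3 and 51.2 CPM in *Disc1* WT/WT (log2 1.27, 0.99 to 1.55), and 19 and 53.9 CPM in *Disc1* LI/LI (interval of log2 0.94 to 2.09). *Gm47664* was at 1.06 and 1.86, *3222401L13Rik* at 0.88 and 1.16 and *A830008E24Rik* at 0.81 and 0.95. *B430010I23Rik* was at 1.06 (0.82 to 1.30) and 0.56 (0.12 to 1.01).

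In *Disc1* LI/LI *B430010I23Rik* was thus level with *Gm10790* (0.56 and 0.55), and *Gm42031* was at 0.26 (0.09 to 0.43) and 0.38 (-0.24 to 0.99). In all, 5 of the 7 other members were at least 1.5-fold higher in the upper quartile of the *Disc1* WT/WT library, against 14.4% of all genes. The *Disc1* LI/LI library had 4 of 7, against 26.6%. Split at the median share in place of quartiles, 1 (*Neat1*) and 2 (*Neat1*, *Gm47664*) members passed 1.5-fold. The lower quartile contains all *Malat1*-poor cells. With these left out, 4 and 3 members passed 1.5-fold, and *Neat1* was at 0.96 and 1.16, *Gm47664* at 0.71 and 1.38 and *3222401L13Rik* at 0.64 and 0.78.

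In *Disc1* WT/WT the 6 ranges of *Malat1* share give the shape of this relation. *3222401L13Rik* was at 13.7 CPM under 0.5%, and then at 78.4, 103, 113, 144 and 193 up to a share of 6% or more. *A830008E24Rik* was at 4.33, 55.7, 73, 81.1, 89.9 and 106, and *Gm47664* at 0.722, 44.5, 55.5, 68.1, 79.5 and 129. For these 3 the step out of the *Malat1*-poor range was larger as a ratio than all later steps together, while *Gm42031* ran at 87.4, 76.1, 77.9, 82.2, 98.5 and 129. Depth moved with the share: the median UMI count was 5868 from 0.5% to 2% and 1987 at 6% or more, and its part in the relation was not tested.

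**Figure D5:**
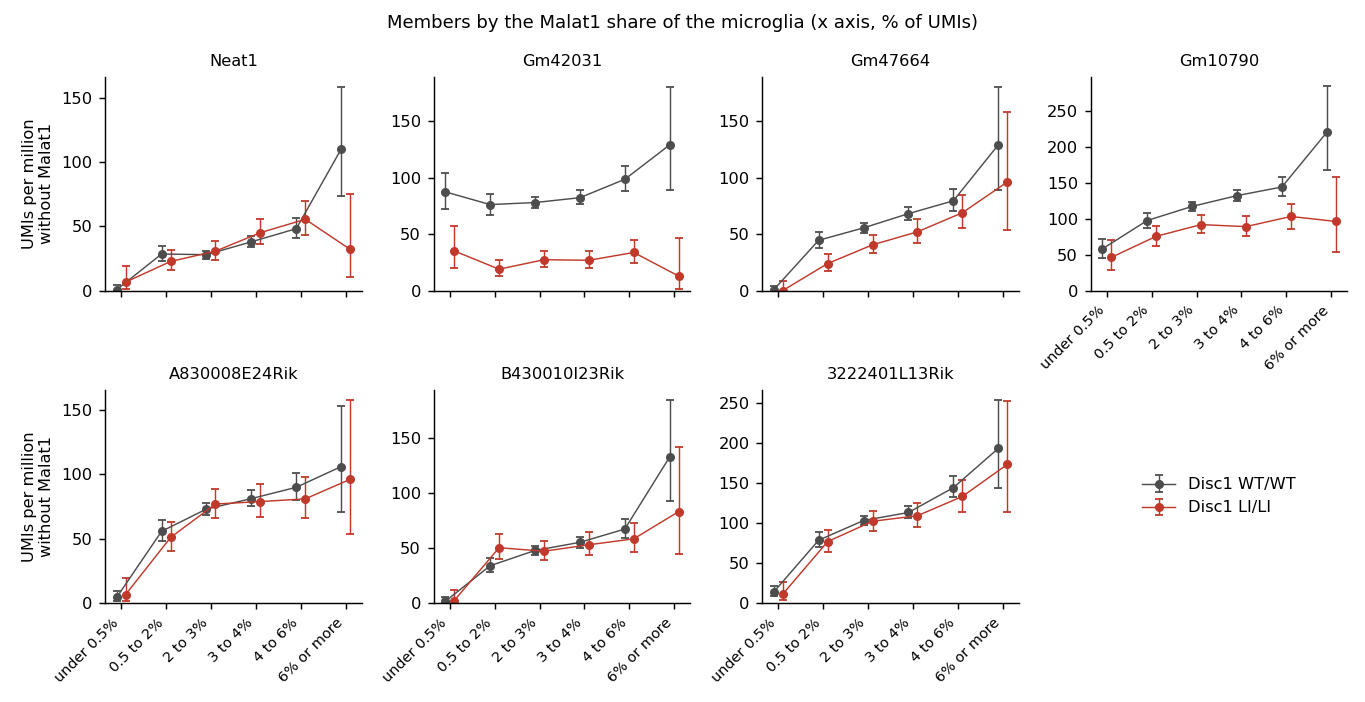
CPM without Malat1 in the totals (y axis, from 0) of the other 7 members in microglia by range of Malat1 share (x axis), in Disc1 WT/WT (grey) and Disc1 LI/LI (red), with 95% Poisson intervals. The members except Gm10790 and Gm42031 start at 13.7 or less under 0.5%, and Gm42031 of Disc1 LI/LI stays below that of Disc1 WT/WT in each range.

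Set side by side within these ranges, the difference of *Gm42031* between the libraries was present at every *Malat1* share. Its log2 ratio of *Disc1* LI/LI over *Disc1* WT/WT was -1.32, -2.01, -1.51, -1.62, -1.55 and -3.33 from the lowest to the highest range. Each interval lay below 0. The lowest range rested on 121 *Disc1* WT/WT and 16 *Disc1* LI/LI UMIs, and the highest on 34 and 2 (-6.43 to -1.37). *Gm10790* was below 0 in all 6 ranges (-0.33 to -1.20), with an interval that held 0 in the *Malat1*-poor range. *3222401L13Rik* lay between -0.32 and -0.02 with intervals that all held 0, as did those of *A830008E24Rik*. *B430010I23Rik* was at 0.57 (0.14 to 0.99) from 0.5% to 2%, and its other intervals held 0. *Gm47664* was at -0.90 (-1.45 to -0.38) from 0.5% to 2%, and its intervals lay below 0 in the ranges from 0.5% to 4%. In the *Malat1*-poor range it had 1 and 0 UMIs and an interval that held 0. *Neat1* was at 0.13, 0.25 and 0.21 in the ranges from 2% to 6%, with intervals that held 0, and at -1.78 (-3.51 to -0.39; 29 and 5 UMIs) at 6% or more.

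In single cells the relation was weak. Across cells thinned to 1000 UMIs, Spearman's rho between each member and *Malat1* was 0.01 to 0.08 over 6076 *Disc1* WT/WT and 1933 *Disc1* LI/LI microglia, lowest for *Gm42031* and given as a description, since cells of a library share its depth and most cells hold 0 UMIs of a member.

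The genes most like *Malat1* were those with the highest smaller-of-both-libraries quartile ratio among 2934 genes with at least 50 CPM in microglia of both libraries. They were *Mir99ahg* (log2 1.05 for *Disc1* WT/WT, 1.43 for *Disc1* LI/LI), a long host transcript of microRNAs, *Kcnq1ot1* (1.04 and 1.60), *Trim44* (1.03 and 1.94), *Hspa1b* (0.99 and 1.33), a heat shock protein gene, and *Gm26917* (0.97 and 1.61). All 5 were lower in *Malat1*-poor microglia, where 53.4% (*Disc1* WT/WT) and 51.2% (*Disc1* LI/LI) of all genes were at least 1.5-fold lower. The lower quartile used to pick them contains all *Malat1*-poor cells, so their lower level there follows in part from the choice. *Malat1*-poor *Disc1* WT/WT microglia held 55 UMIs of *Trim44* (log2 -1.06), 9 of *Hspa1b* (-4.00) and 5 of *Mir99ahg* (-5.42).

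Of the 3 members at that level, *3222401L13Rik* was 13th, *A830008E24Rik* 27th and *Gm10790* 217th in this order. At the other end stood *Lyz2* (-1.05 and -1.35), the lysozyme gene, *Apoe* (-1.01 and -1.39), the apolipoprotein E gene, *Pkm* (-0.69 and -0.92), a glycolytic enzyme gene, and the mitochondrially encoded *mt-Atp6* (-0.66 and -0.71) and *mt-Co2* (-0.65 and -0.79).

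Between the libraries the same lists were compared in microglia. At least 1.5-fold lower in *Disc1* LI/LI were 1 of 16 paraspeckle protein genes (median -0.36), 1 of 14 speckle protein genes (-0.18) and 7 of 19 other long noncoding RNAs (-0.21), beside the 18.1% and -0.19 of all genes, and 0 of these genes was 1.5-fold higher. *Kcnq1ot1* (111 and 69.9 CPM) and *Oip5os1* (137 and 86.9) were both at -0.66 and *Srrm1* at -0.59 (260 and 173). *Gas5* (232 and 248), *Son* (560 and 580), *Hnrnpa1* (78.4 and 85.9) and *Snhg8* (61.7 and 67.3) were level or slightly higher, from 0.05 to 0.13.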

How the data were processed

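Both libraries were mapped to genotype by their labels. The authors made 1 table of UMI counts per library (Cell Ranger 6.1.2 per the file headers, mm10) and deposited these counts without normalization; the submitters' notes also name STAR and Seurat 3.0.1. Which of the 2 chips served each library is not given in the sources used here. Doublets and free RNA were not removed. Members and lists were chosen with earlier results of these data known.

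UMIs were summed over the cells of a class and divided by their total. Ratios have 95% Clopper-Pearson intervals, levels Poisson and shares exact binomial intervals. Ratios past 1.5-fold count where both groups hold at least 50 UMIs together, and 0 UMIs is read as at most 3. Genes named are the members, the 5 highest and 5 lowest *Malat1*-like genes and, per list, the 2 highest and 2 lowest ratios between libraries among genes of at least 50 CPM; *Zfp791*, *Elmo1*, *Mtus1* and the markers named were added after values were seen. A gene that the rule names is not reported here. A type among the other cells needed 3 of its markers. GENCODE M21 was matched by identifier for 32235 genes, and transcript sequences are GENCODE's. Ratios of *Disc1* LI/LI over *Disc1* WT/WT microglia were also computed on simulated Poisson counts. These hold no variation between cells, mice or libraries, so they bear on counting error only. The tools were R 4.3.3 with edgeR 4.0.16 (TMM only) and Python 3.11.15 with scipy 1.17.1, numpy 2.4.6, matplotlib 3.10.9 and pandas 2.3.3.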

Additional observations from a re-analysis of the deposited data

Results flagged for a closer look

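*Neat1* was lower in *Disc1* LI/LI neutrophils, relative to *Disc1* WT/WT, (log2 -0.35, interval -0.60 to -0.09) and higher in *Disc1* LI/LI other cells (log2 0.27, interval 0.10 to 0.44), and counting intervals on opposite sides of 0 brought it here. The difference was not tested, since each genotype has 1 library. Under TMM scaling the values were 0.19 and 0.75, both above 0. The neutrophils of *Disc1* WT/WT held 133 *Neat1* UMIs in 116 cells, and the other cells differ in make-up between the libraries.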

How the results depend on the processing

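No paired analysis was possible because each genotype has 1 library. Of 90 counts of members recomputed under other settings, 83 stayed within 1.5 times. A count can stay while its members change. In the upper *Malat1* quartile of *Disc1* LI/LI, microglia markers of at least 1% kept 4 members, with *Gm42031* in place of *A830008E24Rik*. With cells thinned to 1000 UMIs, 2 members in place of 1 were lower in *Disc1* LI/LI microglia. In the upper *Malat1* quartile of *Disc1* LI/LI, 2 in place of 4 were higher (3 measured). The 5 members lower in neutrophils could not be measured after thinning, and the 2 that could, *Malat1* and *Neat1*, were not lower. Leaving out neutrophils with a microglia marker UMI left 1 member lower in that class (4 measured). A split at the median *Malat1* share in place of quartiles gave 1 in place of 5 and 2 in place of 4. With microglia markers of at least 1%, 26 *Malat1*-poor *Disc1* LI/LI cells remained and 2 members in place of 6 were lower, with *Neat1* at -0.57 and *A830008E24Rik* at -0.44. Fewer UMIs or cells remained in these alternatives, except in the split at the median, which compares closer groups. For the 2 members of thinned microglia and the smaller *Neat1* and *A830008E24Rik* ratios the cause was not tested. TMM scaling shifted log2 ratios by 0.13 (*Disc1* LI/LI over *Disc1* WT/WT, microglia), 0.54 (neutrophils) and 0.48 (other cells), by -0.89 and -1.32 (microglia over neutrophils, *Disc1* WT/WT and *Disc1* LI/LI), by -0.25 and -0.32 (quartiles) and by 0.55 and 0.49 (*Malat1*-poor over other microglia). It turned *Malat1* in *Disc1* LI/LI microglia over neutrophils to -0.01, in place of 1.30. *Gm42031* in microglia ranged from -1.65 to -1.37 over 11 alternatives. Leaving out *Malat1*-poor cells, setting their limit at no *Malat1* UMI or at 1%, and leaving out marked neutrophils were added after the data were seen. Of 724 ratios of single members, 600 stayed within the counting interval, and 29 with 0 UMIs were not given. Depth limits the low members: a ratio on 1 to 3 UMIs spans several units of log2.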
